A study of Mus musculus with 6 samples.

Results

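The Sox factors described here are 8 transcription factor genes, Sox4, Sox5, Sox6, Sox8, Sox9, Sox11, Sox12 and Sox13, taken by symbol as members of the family known from mesenchyme. All 8 had a row among the 23329 genes measured, and all 8 were among the 13478 genes that passed the filter on low counts. RNA was sequenced from mesenchymal cells grown from the small intestine of C57 mice, in 3 adult cultures and 3 cultures from embryos at embryonic day 14.5 (E14.5). Both groups shared the removal of epithelium by chelation, an enzyme digest (collagenase, dispase) and growth to confluence in medium with serum and the ROCK inhibitor Y27632, and RNA was taken at passage 2 to 3. From adult gut the villi were first removed by scraping, embryonic gut was cut up, and no cell sort is named. The labels give neither the adult age, nor the mice per culture, nor whether replicates are separate animals, so p-values measure the spread between cultures, which may be technical.

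Sox proteins carry an HMG box, a DNA-binding domain related to that of SRY, which sits in the minor groove and bends the DNA. Group C (SOX4, SOX11, SOX12) are activators from genes without introns, and in mouse embryos they act redundantly to keep mesenchymal and neural progenitors alive. Group D (SOX5, SOX6, SOX13) form dimers through a coiled coil and have no activation domain of their own. SOX5 and SOX6 assist SOX9 in cartilage. Group E includes SOX8 and SOX9. SOX9 drives cartilage formation and, in the gut, is best known from the crypt epithelium.

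Gene totals ranged from 18850224 to 29903594 counts in the adult libraries and from 30430596 to 32672370 in the E14.5 libraries, and adult replicate 2 was the shallowest. As for the labelled cell type, 12 of 12 mesenchymal markers, among them Vim, Col1a1 and Col1a2, passed the filter, with summed levels of 12530 to 21329 CPM in adult and 12734 to 24626 CPM in E14.5 libraries. Of these 12, Pdgfra, a receptor gene of fibroblasts, alone passed the test between the groups, against 1.08% of all genes tested. It measured 29.5, 80.95 and 31.7 CPM in adult cultures, against 2.47, 3.85 and 4.45 CPM in E14.5 cultures (log2 fold change 3.72, SE 0.50, adjusted p = 0.036, edgeR). CPM is a count scaled to library size (1e+06 counts), with library sizes adjusted by the trimmed mean of M-values (TMM). Markers of other cells differed between libraries. The 12 endothelial markers reached a sum of 1956 CPM in adult replicate 2 and 426 CPM in adult replicate 3, against 18.8 to 40.5 CPM in the other 4 libraries. The sum of 7 mesothelial markers was 1571 CPM in adult replicate 1, 664 in replicate 2 and 824 in replicate 3, against 157, 793 and 152 CPM in the E14.5 replicates in the same order. Macrophage and leukocyte markers (14 genes) summed to 26.2 to 213 CPM in adult and 265 to 3069 CPM in E14.5 libraries, so that these sums did not overlap. Of single genes, 24.1% of all tested did not overlap either. All 14 log2 fold changes were negative, as were 6937 of 13478 over all genes tested. Of the 14, 13 had an unadjusted p under 0.05, against 17.9% of all genes, and 0 passed the test, against 1.08% (edgeR). Of 11 epithelial markers with a row, Cdx2 and Fabp1 had no count in any library, and Epcam reached at most 0.141 CPM. In such bulk samples, fewer cells of a type and less RNA per cell cannot be told apart.

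The members of a group share much of the HMG box, so it matters whether 75-base reads can tell them apart. The stretches below show, for each group, the 75 coding bases in which a pair of members is most alike, with the bases that differ in capitals. They are read 5′ to 3′ on the coding strand from the GENCODE M21 principal transcripts on mm10. All 6 stretches lie within 1 coding exon.

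Sox4, chr13:28952749-28952823, minus strand: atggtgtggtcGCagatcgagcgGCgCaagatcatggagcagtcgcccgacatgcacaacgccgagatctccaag
Sox11, chr12:27342166-27342240, minus strand: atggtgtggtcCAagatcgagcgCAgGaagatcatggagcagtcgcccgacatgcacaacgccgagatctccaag
Sox6, chr7:115489682-115489756, minus strand: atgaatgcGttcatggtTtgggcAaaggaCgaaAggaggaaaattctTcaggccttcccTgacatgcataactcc
Sox13, chr1:133385485-133385559, minus strand: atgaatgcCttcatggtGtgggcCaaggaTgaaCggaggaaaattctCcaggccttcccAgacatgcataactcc
Sox8, chr17:25570164-25570238, minus strand: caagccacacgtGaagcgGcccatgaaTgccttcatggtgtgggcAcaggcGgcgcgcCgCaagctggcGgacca
Sox9, chr11:112782887-112782961, plus strand: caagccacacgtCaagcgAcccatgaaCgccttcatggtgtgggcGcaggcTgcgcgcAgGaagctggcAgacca

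The pair Sox4 and Sox11 differed at 5 of 75 bases, Sox6 and Sox13 at 7, and Sox8 and Sox9 at 8. Over all 7 pairs within a group, the most alike stretch differed at 5 to 10 bases. No 75-base window of any of the 8 principal transcripts occurred exactly in a transcript of another gene on the same strand. On the opposite strand, 2542 of 4721 windows of Sox4 lay in the transcript of the long noncoding gene Gm26735, and 255 of 2926 windows of Sox8 in that of 2810468N07Rik. Counts here are from the reverse-strand column, which keeps such partners apart. Sox5 also contains the noncoding genes Sox5it and Gm44068 on its own strand in GENCODE M21, and how reads there were assigned is unknown, so its counts carry that uncertainty.

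Sox4 was by far the most abundant member in both groups. To compare genes, CPM was divided by the length of each gene's coding-transcript exons in GENCODE M21. In adult cultures, the level of Sox4 was 20.98 ± 4.40 CPM per kilobase, and in E14.5 cultures 25.1 ± 5.35 (SD, n = 3 each). In adult cultures Sox12 (3.15), Sox9 (2.85), Sox11 (2.46), Sox13 (1.34), Sox5 (1.14), Sox6 (0.872) and Sox8 (0.498 CPM per kilobase) followed. In that adult order, Sox4 did not overlap with Sox12, and Sox11 did not overlap with Sox13, whereas all other neighbours overlapped in their 3 libraries. In E14.5 cultures the order was Sox4, Sox11 (4.26), Sox12 (3.98), Sox9 (1.14), Sox6 (1.06), Sox13 (0.904), Sox5 (0.795) and Sox8 (0.243 CPM per kilobase). There, Sox4 and Sox11, Sox12 and Sox9, and Sox5 and Sox8 did not overlap, and the other neighbours did. With the principal transcript's length instead, a choice made after seeing the data, Sox6 measured 1.21 and Sox9 1.14 CPM per kilobase in E14.5 cultures, which swaps these neighbours.

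**Figure D1:**
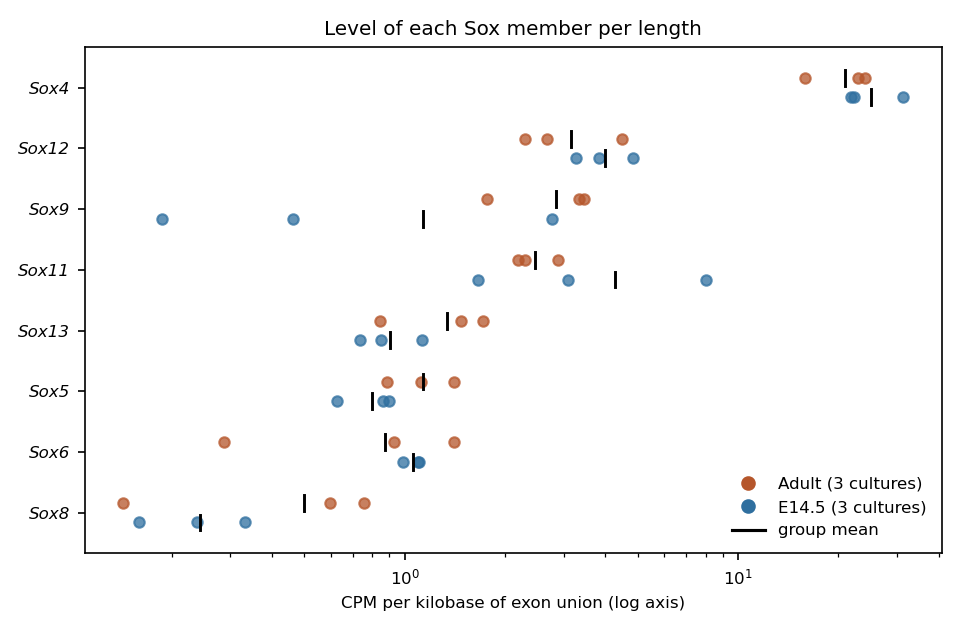
Level of each Sox member in CPM per kilobase of exon union on a log axis, with 1 point per culture (orange, adult; blue, E14.5) and a black bar at each group mean. Sox4 lies above every other member in all 6 libraries, and Sox9 has E14.5 points from 0.187 to 2.76.

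Counted as reads, the group C genes made up most of the Sox signal. Sox4, Sox11 and Sox12 together held 78.0%, 82.9% and 77.1% of the 8 members' counts in adult replicates 1, 2 and 3, against 90.7%, 80.9% and 89.3% in E14.5 replicates 1, 2 and 3. E14.5 replicate 2 thus lay within the adult range.

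None of the 8 members passed the test for a difference between adult and E14.5 cultures. The edgeR quasi-likelihood test with Benjamini-Hochberg adjustment over all genes called 0 of 8 at an adjusted p of 0.05, against 1.08% of all genes tested. At an unadjusted p under 0.05 there were 0 members, against 17.9% of all genes, and DESeq2 called 0, against 10.6% of all genes. Limma-voom called 0 as well, against 138 of 13478 genes tested. It put 1 member, Sox9, at an unadjusted p under 0.05, and the share of all genes at that level is not given here. In none of the 8 did the libraries of the groups stay apart, which they did for 24.1% of all genes. Of the log2 fold changes, adult over E14.5, 4 were positive (Sox5, Sox8, Sox9 and Sox13) and 4 negative (Sox4, Sox6, Sox11 and Sox12), with a median of 0.13, against -0.013 over all genes tested. The 95% intervals differed in width, from -0.79 to 0.27 for Sox4 to -0.97 to 3.62 for Sox9, and those of Sox8 and Sox11 reached 2.61 and -2.13.

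**Figure D2:**
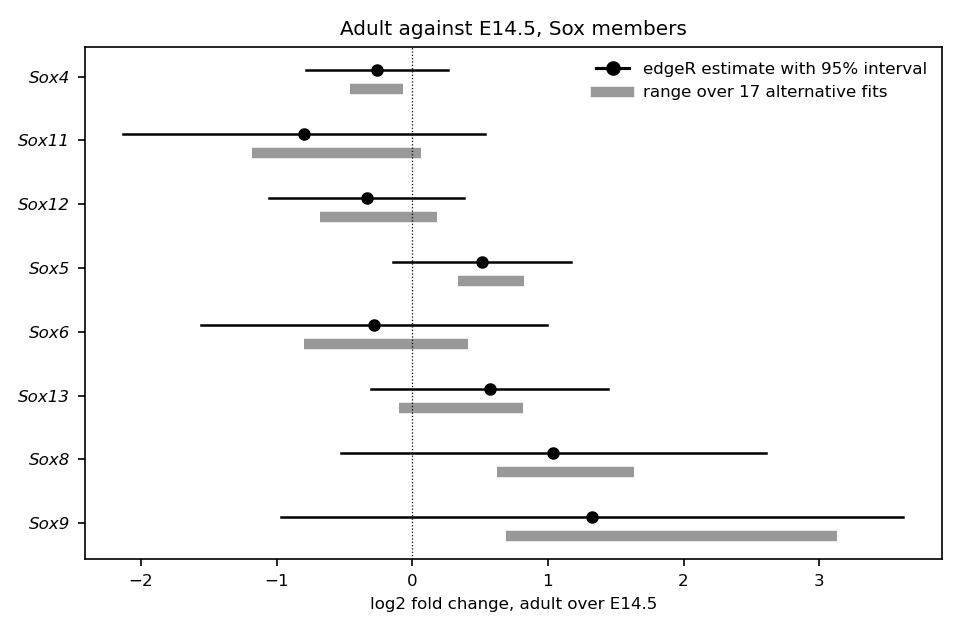
Log2 fold change of each member, adult over E14.5, with its 95% interval (black, edgeR) and the range of the estimate over 17 alternative fits (grey bar). All 8 intervals include 0, and the grey bars of Sox6, Sox11, Sox12 and Sox13 cross it.

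Among the group C genes, Sox11 varied least between adult cultures and most between E14.5 ones (SD of log2 CPM 0.213 in adult and 1.14 in E14.5 cultures), while Sox4 had SDs of 0.325 between adult and 0.292 between E14.5 cultures. Sox4 (mm10 chromosome 13, 28948919 to 28953713, minus strand) is known from progenitors of many tissues. It measured 109.9, 115 and 76.4 CPM in adult replicates 1, 2 and 3, against 149.99, 107 and 105 CPM in E14.5 replicates 1, 2 and 3. Only E14.5 replicate 1 lay above the adult range. Its log2 fold change of -0.26 had an SE of 0.22 and a 95% interval of -0.79 to 0.27 (adjusted p = 0.622, edgeR).

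Sox11 (chromosome 12, 27334264 to 27342574, minus strand) is typical of embryonic nerve and mesenchyme and is low in most adult tissues. It measured 24.0, 19.1 and 18.2 CPM in adult cultures, against 66.8, 13.8 and 25.6 CPM in E14.5 cultures. The adult libraries lay close together, and the embryonic ones lay on both sides of them. The log2 fold change of -0.79 (SE 0.55, adjusted p = 0.535, edgeR) rested on E14.5 replicate 1, without which it was 0.062. Its highest library was 1.32 times its lowest among adult cultures, and 4.84 times among E14.5 cultures. The count ratio of Sox11 to Sox4 was 0.165 to 0.238 in adult cultures, against 0.446, 0.130 and 0.245 in E14.5 cultures.

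Sox12 (chromosome 2, 152393611 to 152398063, minus strand) has the weakest known phenotype of the group C genes when deleted in mice. It measured 20.0, 10.2 and 11.9 CPM in adult cultures, against 17.1, 14.5 and 21.6 CPM in E14.5 cultures, and the groups overlapped. With a log2 fold change of -0.34 (SE 0.30), Sox12 did not pass (adjusted p = 0.644, edgeR), and without adult replicates 2 and 3 the value was 0.18. Summed over the 3 group C genes, levels were 154, 144.7 and 107 CPM in adult cultures, against 234, 135 and 152 CPM in E14.5 cultures. These sums overlapped (exact two-sided permutation test, p = 0.5). With 3 against 3 that test cannot give a p under 0.1, so for this and the other group sums it could not pass whatever the values.

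**Figure D3:**
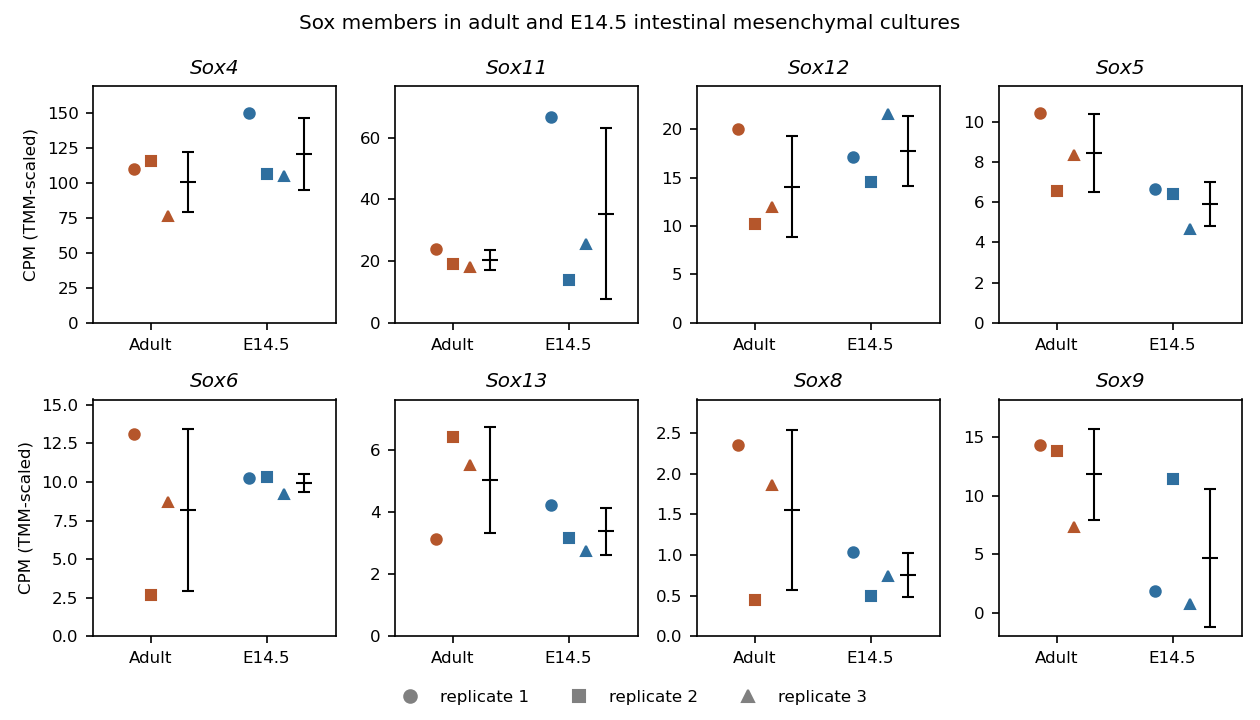
TMM-scaled CPM of each member per culture (circle, square and triangle for replicates 1, 2 and 3; orange, adult; blue, E14.5), with the group mean and SD in black. The groups overlap in all 8 panels. On a log2 scale, which the panels do not use, Sox6 and Sox8 spread most among adult cultures, and Sox9 and Sox11 among E14.5 cultures.

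Sox9 had the largest log2 fold change of the 8 with all libraries, and the largest spread of log2 CPM between E14.5 cultures. The gene lies on the plus strand of chromosome 11, from 112782224 to 112787760. It measured 14.3, 13.8 and 7.31 CPM in adult cultures, against 1.91, 11.4 and 0.772 CPM in E14.5 cultures. E14.5 replicate 2 thus lay among the adult libraries, and the other embryonic cultures lay below all of them. The estimate was a log2 fold change of 1.33 with an SE of 0.95 and a 95% interval of -0.97 to 3.62 (adjusted p = 0.549, edgeR). Without E14.5 replicate 2 it was 3.13, with an adjusted p of 0.054 in edgeR, still not past the threshold, and leaving out E14.5 replicate 3 gave 0.82. With adult replicate 2, E14.5 replicate 1 or E14.5 replicate 3 left out, Sox8 had the larger value. Sox8 also did so without adult replicates 2 and 3, and without adult replicate 2 and E14.5 replicate 3. Sample titles carry 3 prefixes, each on 1 adult and 1 E14.5 library, and within these pairs log2 CPM, adult minus E14.5, differed by 2.90 (replicates 1), 0.27 (replicates 2) and 3.24 (replicates 3).

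The SD of log2 CPM of Sox9 between adult cultures was 0.540, where the median over genes tested was 0.194. Between E14.5 cultures it was 1.92, higher than for 98.8% of genes tested, where the median was 0.295. Mesothelial markers moved with Sox9 in part. Their sum was 664 CPM or more in all 3 adult libraries and 793 CPM in E14.5 replicate 2, but 157 CPM in E14.5 replicate 1 and 152 CPM in E14.5 replicate 3, the libraries low in Sox9. Among the adult libraries the orders differed, since replicate 2 had 13.8 CPM of Sox9 and the lowest mesothelial sum, 664 CPM. The defining markers Wt1, Upk3b and Msln had counts in every library. Wt1, Upk3b and Upk1b were lowest in E14.5 replicates 1 and 3, with E14.5 replicate 2 within their adult range, as for Sox9. Msln did not follow, at 72.3 CPM in E14.5 replicate 3, above 67.4 CPM in adult replicate 2. Lrrn4, Bnc1 and Gpm6a in E14.5 replicate 2, at 10.0, 23.8 and 20.2 CPM, lay below every adult library, which Sox9 did not. The part of mesothelial cells in the Sox9 level was not tested. Of the epithelial list, the keratin gene Krt18, also made by mesothelium, measured 83.7, 48.5 and 55.3 CPM in adult cultures, against 24.6, 77.5 and 16.9 CPM in E14.5 cultures, and was thus lowest in the same E14.5 replicates 1 and 3. Krt20, the other most abundant gene of that list and a keratin of mature gut cells, measured 13.4, 9.09 and 13.7 CPM in adult cultures, against 61.4, 47.0 and 24.4 CPM in E14.5 cultures, and did not follow Sox9. Krt8, the partner keratin of Krt18, was low there too, at 6.22 and 4.33 CPM, but was as low in adult replicate 2, at 5.26 CPM. Epcam, the general marker of epithelium, stayed at 0.0618 to 0.141 CPM in all 6 libraries.

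Sox8, a close relative that overlaps with SOX9 and SOX10 in function in mice, was near the bottom of the range. It lies on the minus strand of chromosome 17, from 25565892 to 25570686, and had 62, 9 and 53 counts in adult cultures, against 33, 16 and 24 counts in E14.5 cultures, or 2.35, 0.447 and 1.86 CPM against 1.03, 0.496 and 0.742 CPM. Adult replicate 2 was the lowest of all 6 libraries and the other adult libraries were the highest. Sox8 had a log2 fold change of 1.04 with an SE of 0.65 (adjusted p = 0.484, edgeR), and it was 1.47 without adult replicate 2 and 0.62 without adult replicate 1. Summed over Sox8 and Sox9, levels were 16.6, 14.3 and 9.18 CPM in adult cultures, against 2.94, 11.9 and 1.51 CPM in E14.5 cultures, and these sums overlapped as well (exact two-sided permutation test, p = 0.2).

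The group D genes were low, and none of the 3 passed the test. Sox5 (chromosome 6, 143828425 to 144781977, minus strand) is known from cartilage and the neural crest. It measured 10.4, 6.56 and 8.33 CPM in adult cultures, against 6.66, 6.39 and 4.67 CPM in E14.5 cultures. The groups overlapped only narrowly, since adult replicate 2 lay just under E14.5 replicate 1. For Sox5 the log2 fold change of 0.51, with an SE of 0.27 and a 95% interval of -0.14 to 1.17, had an adjusted p of 0.397 in edgeR, the lowest adjusted p of the 8. Its sign held in all 17 alternative fits, from 0.34 to 0.82.

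Sox6 (chromosome 7, 115470872 to 116038796, minus strand) marks a subepithelial fibroblast class in the human colon. It was uneven among adult cultures and nearly level among E14.5 ones. It measured 13.1, 2.68 and 8.68 CPM in adult cultures, against 10.3, 10.3 and 9.24 CPM in E14.5 cultures. Adult replicate 2, with 54 counts, stood apart from the other 5 libraries, which had 247 to 347 counts. The SD of log2 CPM was 1.17 between adult cultures, above 96.3% of genes tested, and 0.0884 between E14.5 cultures, above only 8.55% of them. The log2 fold change of -0.28 (SE 0.53, adjusted p = 0.856, edgeR) became 0.14 without adult replicate 2.

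Sox13 (chromosome 1, 133382303 to 133424377, minus strand) is known from mouse gamma-delta T cells and from developing arteries. It measured 3.14, 6.41 and 5.52 CPM in adult cultures, against 4.22, 3.17 and 2.75 CPM in E14.5 cultures. Adult replicates 2 and 3 were the highest of the 6 libraries, and adult replicate 1 lay within the embryonic range. Sox13 had a log2 fold change of 0.57 with an SE of 0.36 (adjusted p = 0.494, edgeR), and without adult replicates 2 and 3 it was -0.10. These are the libraries in which the endothelial sum was 1956 and 426 CPM, against 18.8 to 40.5 CPM elsewhere. Of the 12 endothelial markers, none was at 0 in all libraries. Emcn gave 1073 of the 1956 CPM in adult replicate 2, and the defining ones Pecam1 and Cdh5 measured 443.9 and 254.8 CPM in adult replicate 2 and at most 0.946 CPM in adult replicate 1 and the E14.5 libraries. Tek, Tie1, Esam, Egfl7, Erg and Cldn5 were also highest in adult replicates 2 and 3, with Cldn5 at no more than 0.546 CPM. Kdr, Vwf and Lyve1 did not follow. Kdr measured 15.5, 14.2 and 17.3 CPM in adult cultures, against 9.04, 12.4 and 7.63 CPM in E14.5 cultures. Vwf was highest in E14.5 replicate 3, at 13.6 CPM, and Lyve1 stayed between 0.803 and 1.88 CPM in all 6 libraries. The part of endothelial cells in the Sox13 level was not tested. The ratio of Sox13 to Sox6 counts was 2.39 in adult replicate 2 and 0.239 to 0.636 in the other 5 libraries. Summed over the 3 group D genes, levels were 26.7, 15.6 and 22.5 CPM in adult cultures, against 21.1, 19.9 and 16.7 CPM in E14.5 cultures (exact two-sided permutation test, p = 0.5).

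**Figure D4:**
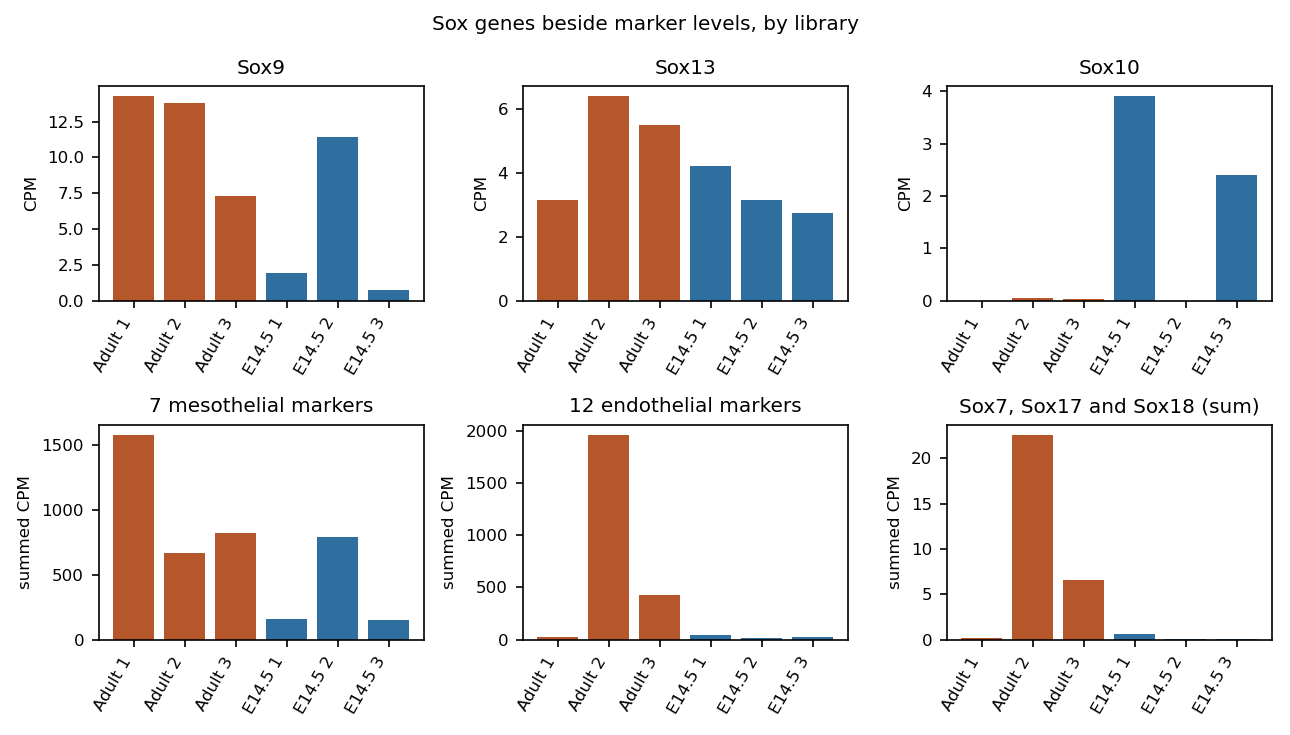
CPM of Sox9, Sox13 and Sox10 (top) and summed CPM of 7 mesothelial markers, 12 endothelial markers and the genes Sox7, Sox17 and Sox18 (bottom), with 1 bar per library (orange, adult; blue, E14.5). Sox9 and the mesothelial sum are both low in E14.5 replicates 1 and 3. Sox13 is highest in adult replicates 2 and 3, where the endothelial sum and the sum of Sox7, Sox17 and Sox18 are also highest.

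The rest of the family was sparse, and 10 of 11 other Sox genes did not pass the filter. Of these, Sox1, Sox3 and Sox14 had no count in any library, which allows at most 0.0927 to 0.149 CPM per library at 3 counts, a limit that covers counting error only. Sox2, Sox15 and Sox21 had at most 9 counts in any library. Sox30, a testis gene, passed the filter, at 0.298 to 0.492 CPM in adult and 0.494 to 0.590 CPM in E14.5 libraries (log2 fold change -0.42, adjusted p = 0.654, edgeR). Sox7, Sox17 and Sox18, the group F genes of endothelium, together had 6, 454 and 188 counts in the adult replicates in order, against 20, 1 and 3 counts in the E14.5 replicates. Within this group, Sox7 had 0, 267 and 96 counts in adult cultures, against 0, 0 and 2 in E14.5 cultures, and Sox18 had 6, 166 and 90 in adult cultures, against 3, 1 and 0 in E14.5 cultures. Sox17 did not share their pattern, with 0, 21 and 2 counts in adult cultures, against 17, 0 and 1 in E14.5 cultures. Sox10, which marks glia of the enteric nervous system and is the third group E gene, had 0, 1 and 1 counts in adult cultures, against 125, 0 and 78 counts in E14.5 cultures. The libraries with Sox10 are those low in Sox9, so that E14.5 replicates 1 and 3 held the 2 highest Sox10 levels and the 2 lowest Sox9 levels. Foxd3, a factor of the neural crest, was highest in the same libraries and measured 0.114, 0.199 and 0 CPM in adult cultures, against 1.41, 0 and 0.494 CPM in E14.5 cultures.

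Of 15 cartilage matrix genes known as targets of SOX9 with SOX5 and SOX6, 9 passed the filter and 0 passed the test (edgeR), against 1.08% of all genes tested. Col11a1 and Col2a1, 2 of the 9, had an unadjusted p under 0.05, against 17.9% of all genes. The log2 fold changes had a median of -0.64, against -0.013 over all genes, with 8 negative and 1 positive. Col11a1, a fibrillar collagen chain, was the most abundant, at 346, 129 and 328 CPM in adult cultures, against 1144, 699 and 623 CPM in E14.5 cultures. These libraries did not overlap, as was so for 24.1% of all genes, but the log2 fold change of -1.62 (SE 0.43, adjusted p = 0.136, edgeR) did not pass. Col2a1, the collagen of cartilage, had 4, 5841 and 527 counts in adult cultures, against 8, 3 and 13 counts in E14.5 cultures. Acan, the cartilage proteoglycan gene, did not follow it, at 0.0379, 0.397 and 0.0703 CPM in adult cultures, against 1.09, 0 and 0 CPM in E14.5 cultures. Col2a1 was high in adult replicates 2 and 3, which also held the endothelial markers, whereas Sox9 in these libraries was 13.8 and 7.31 CPM, against 14.3 CPM in adult replicate 1.

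Of 6 reported targets of SOX4 and SOX11 with a row, 4 passed the filter and 0 the test (edgeR), against 1.08% of all genes. Of the 4, 1 had an unadjusted p under 0.05, Tubb3, against 17.9% of all genes, with a median log2 fold change of -0.086. Tubb3, a tubulin gene of neurons, measured 74.0, 137 and 89.4 CPM in adult cultures, against 44.9, 12.7 and 39.7 CPM in E14.5 cultures (log2 fold change 1.62, SE 0.50, adjusted p = 0.164, edgeR). Dicer1, which encodes the microRNA-processing enzyme, measured 74.3 ± 2.75 CPM in adult and 74.9 ± 4.44 CPM in E14.5 cultures (SD, n = 3 each). Tead2, a Hippo pathway factor named after its values were seen, was highest in E14.5 replicate 1, as Sox11 was. It measured 74.5 CPM there, against 33.0 to 55.6 CPM in the other 5 libraries. Its lowest library was adult replicate 1, whereas that of Sox11 was E14.5 replicate 2. None of the other targets that passed the filter was highest in E14.5 replicate 1.

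None of the genes for partner proteins of the Sox factors passed the test. Of 13 listed, 11 passed the filter and 0 the test (edgeR), against 1.08% of all genes. Of the 11, 1 had an unadjusted p under 0.05, Arid5b, against 17.9% of all genes, with a median log2 fold change of 0.036. Ctnnb1, the gene for beta-catenin, measured 756 ± 54.2 CPM in adult and 772 ± 67.6 CPM in E14.5 cultures (SD, n = 3 each). Arid5b, a partner of SOX9 in cartilage, measured 129.5, 142 and 139 CPM in adult cultures, against 88.8, 50.6 and 65.8 CPM in E14.5 cultures, without overlap, as for 24.1% of all genes (log2 fold change 1.00, SE 0.21, adjusted p = 0.096, edgeR). The 4 TCF/LEF genes, whose proteins carry a related HMG box and act in Wnt signalling, all had positive log2 fold changes, as had 6541 of 13478 genes tested, with a median of 0.74. Of these 4, 0 passed (edgeR), against 1.08% of all genes, and Tcf7l2 alone had an unadjusted p under 0.05, against 17.9% of all genes. Tcf7l2 measured 18.3, 15.3 and 19.2 CPM in adult cultures, against 8.94, 8.50 and 12.9 CPM in E14.5 cultures (log2 fold change 0.80, SE 0.22, adjusted p = 0.137, edgeR). Tcf7l1 measured 22.3 ± 3.45 CPM in adult and 13.9 ± 4.82 CPM in E14.5 cultures (adjusted p = 0.288, edgeR).

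Each member's pattern over the 6 libraries was set beside that of 8525 or 8526 other named genes of at least 10 CPM, as a description only, since the best of so many always lies close. Sox13 was most like Emcn, the endothelial sialomucin gene (Pearson's r = 0.989 of log2 CPM), which measured 2.39, 1073 and 191 CPM in adult cultures, against 22.5, 0.527 and 0.216 CPM in E14.5 cultures. Sox9 was most like Ccdc47 (r = 0.994), Sox11 like Arid1a (r = 0.995), Sox6 like Eif1 (r = 0.994), and Sox8 like Fgfr1op2 (r = 0.998). Sox4 was most like Mapkapk5 (r = 0.965), Sox5 like Nat6 (r = 0.987) and Sox12 like Slc6a9 (r = 0.983). Relative to its level, the most alike gene spanned a narrower range than the member for every member but Sox13. Emcn spanned a wider one than Sox13. Ccdc47 ranged from 91.1 to 126 CPM over libraries in which Sox9 ranged from 0.772 to 14.3 CPM, and Eif1 from 208 to 260.2 CPM where Sox6 ranged from 2.68 to 13.1 CPM. Among the members themselves, Sox12 and Sox13 ran most nearly opposite (r = -0.89) and Sox5 and Sox8 most nearly together (r = 0.75), over the same 6 libraries.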

How the data were processed

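RNA-seq was done on 3 adult and 3 E14.5 cultures. The files deposited by the authors hold raw counts of reads for each gene, 1 table per library. Per the labels' protocols, libraries were stranded, from poly(A) RNA, with single-end 75 bp reads, and the aligner was STAR, on mm10, per the submitters' processing notes. The gene annotation, the STAR version and the handling of shared reads were not given in the sources used here. Reverse-strand counts were used, as forward-strand counts were 1.33% to 1.69% of stranded gene counts. Unassigned reads, 17.4% to 19.8% of reads per library, were left out.

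Genes were kept by filterByExpr, scaled by TMM and compared (adult over E14.5) in R 4.3.3 with the quasi-likelihood test of edgeR 4.0.16 across all 13478 genes, with p-values adjusted by Benjamini-Hochberg (threshold 0.05). The SE of a log2 fold change is its size over the square root of F, and its 95% interval uses the moderated degrees of freedom, so both are approximate. CPM and CPM per kilobase were computed here. Alternatives used DESeq2 1.42.0, limma-voom (limma 3.58.1), other scalings, filters and count columns, a block and left-out libraries. In simulated counts with the same relative variability for every gene, these steps called 176 of 198 changed genes and 6 unchanged ones. That run did not measure power for genes as uneven between cultures as Sox9 or Sox6. Replicates are numbered in accession order. Sample titles carry 1 of 3 prefixes that the labels do not explain, each shared by 1 adult and 1 E14.5 library.

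The members and lists were chosen with earlier results of these data known. The rule for named genes took all 8 members, the other listed Sox genes by their counts, and from each other list called members and the 2 most abundant not called. Of the marker lists, those of mesenchyme, endothelium, mesothelium, macrophages and gut epithelium are given only as far as they bear on the members. Smooth muscle, cell cycle and glial lists are not described. Further genes (Tead2, Foxd3, Krt8, Kdr, Vwf, Lyve1, Acan, Tek, Tie1, Esam, Egfl7, Erg, Cldn5, Lrrn4, Bnc1, Gpm6a) were named after their values were seen. Genes most alike were the 3 of highest Pearson correlation, and the first is given. Symbols were matched to GENCODE M21 (GRCm38, the assembly of mm10) for positions, lengths and sequences.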

Additional observations from a re-analysis of the deposited data

Results flagged for a closer look

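Taken over the 6 libraries together, forward-strand counts, which the comparisons do not use, were above the level of the whole libraries at 2 members. At Sox4 they made up 4.12% of stranded counts over the 6 libraries, against 1.33% to 1.69% over all genes of a library. Sox4 had 116, 112 and 134 forward counts in adult replicates 1, 2 and 3, against 177, 188 and 90 in E14.5 replicates 1, 2 and 3. The long noncoding gene Gm26735 lies on the plus strand of chromosome 13 across 2542 of the 4721 read-length windows of Sox4. The share was above the whole-library level in all 6 libraries, from 2.59% to 5.81%. At Sox12 the share was 1.76%, from 50 forward counts in all, only just above the whole libraries, and no gene of GENCODE M21 overlaps Sox12. In E14.5 replicates 1 and 3 the Sox12 share was 1.08% and 1.27%, below the 1.49% and 1.34% of these whole libraries. Single outlying libraries were not tested in these groups of 3.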

How the results depend on the processing

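In all 17 alternative fits, 0 of 8 members were called. The count of all genes called, 146 in the edgeR fit, was 1427 with DESeq2, 2 with the title prefix as a replicate block, 36 without adult replicate 2 and E14.5 replicate 3, 0 without adult replicates 2 and 3, and 3 to 471 over the fits without 1 library. Deviations from the group means of libraries that share a prefix correlated at -0.14, -0.23 and -0.088 across genes. With group means of only 3 libraries, these values cannot decide whether the prefix marks a pairing. Without 1 library in turn, log2 fold changes lay between -1.18 and 0.062 for Sox11 and between -0.80 and 0.14 for Sox6, which turned the sign of both. For the sums the log2 ratio lay between -0.0080 and 0.36 for group D and between -0.34 and 0.020 for all 8 members. Without adult replicates 2 and 3, Sox6 was 0.41, Sox12 0.18 and Sox13 -0.10. Without adult replicate 2 and E14.5 replicate 3, Sox6 was 0.09 and Sox12 0.016. Sox12 was lowest, at -0.68, without adult replicate 1. The signs of Sox4, Sox5, Sox8 and Sox9 held in all 17. For Sox9, limma-voom gave 2.09 and the block 2.15. The causes were not tested. With 9 to 62 counts per library, Sox8 had the fewest counts of the 8 members.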
